A study of Mus musculus with 18 samples.

Results

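The comparison described here sets the short-tail fraction of mouse forebrain RNA (WASH) against the unfractionated RNA of the same animal (INPUT). WASH is the RNA that came off a poly(U) column at 25% formamide, which the labels call enriched for short tails, and the long-tail fraction (ELUTED) came off at 90% formamide. Its members are the 12 WASH and INPUT arrays of 6 mice, out of 18 arrays in all, taken as 6 pairs, and 12822 of 17097 named genes passed a filter on low levels and were compared. The mice, aged 6 weeks, fall into the genotypes CPEB4 KO, CPEB4 GT/+ and WT, with 2 animals each. Cortex and striatum were dissected together, and the labels give no strain and do not spell out the GT allele. All RNA went through the same whole transcriptome amplification, 21 cycles from 5 ng. The values are log2 levels made by the authors with RMA, a method that scales all arrays to each other, so a total amount of poly(A) RNA in a fraction was not measured. A log2 difference of 1 is a factor of 2, and n is 2 animals in each genotype, 6 in all.

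Most messenger RNAs end in a run of adenosines that poly(A) binding proteins cover, and enzymes shorten or lengthen this tail in the cytoplasm. CPEB proteins, of which Cpeb4 is a member, bind a sequence in the 3′ end of target messengers and recruit either the deadenylating or the polyadenylating machinery, and neurons use this to set translation near synapses. Replication-dependent histone messengers are the textbook exception that end in a stem-loop and carry no tail, and ribosomal RNA has none either.

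Among markers of the labelled tissue, 21 of 22 excitatory cortical and 17 of 21 striatal ones had a probe set. All of these passed the filter, as did 12822 of all 17097 genes. Their median INPUT levels were 8.96 and 9.37 (log2), above the highest mean of the nonspecific control probe sets, 5.61. The INPUT array of CPEB4 KO 1 stood apart from the other arrays. On it, 74 of the genes kept lay more than 1.5 log2 units above the median of the other INPUT arrays, counting genes whose other 5 arrays spanned less than 1 unit, against 0 genes on each of the other 5 INPUT arrays. These were transcripts of liver. Of 29 liver genes with a probe set, chosen after this was seen, 29 were higher on that array than on any of the other 17, with a mean log2 level of 9.995, against 5.39 to 5.57 on the other 17. Alb, serum albumin, was at 12.1 there, and at 5.86 to 6.86 on the others. The WASH and ELUTED arrays of that animal had means of 5.43 and 5.49, so the liver transcripts were on the INPUT array alone. The counts of calls that open a paragraph below are therefore also given without this animal.

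**Figure D1:**
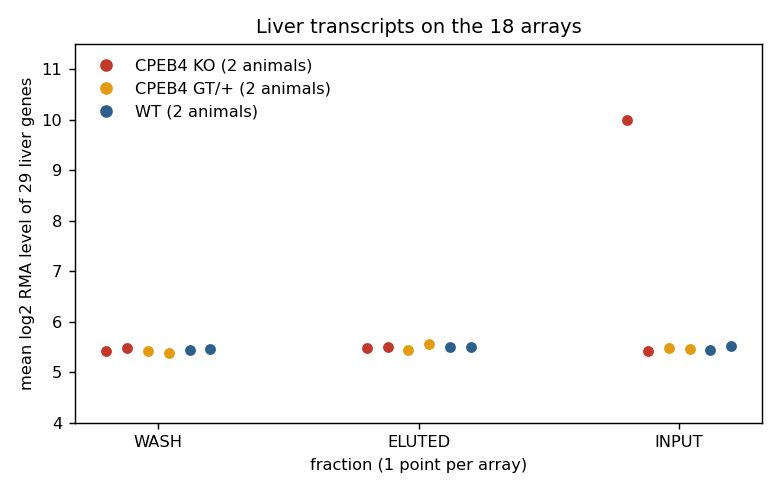
Mean log2 RMA level of 29 liver genes on each of the 18 arrays, by fraction, with 1 point per array coloured by genotype. The INPUT array of CPEB4 KO 1 lies at 9.995 and the other 17 arrays lie between 5.39 and 5.57.

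Cpeb4, the targeted gene, followed the labels in both fractions. Its log2 level was 7.45 and 7.74 on the WASH arrays of CPEB4 KO mice, 8.19 and 8.40 in CPEB4 GT/+ and 8.73 and 8.75 in WT. On the INPUT arrays it was 6.62 and 6.91 in CPEB4 KO, 7.31 and 7.002 in CPEB4 GT/+ and 8.15 and 7.62 in WT. The CPEB4 KO animals were the lowest in both fractions. Cpeb4 itself was higher in WASH than in INPUT in 6 of 6 animals, by 0.94 ± 0.09 (log2, SE; limma adjusted p = 7.8e-05), on the probe set with its highest level. Its other probe set above the filter was at -0.43, so the direction for Cpeb4 depends on the probe set read.

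WASH and INPUT differed in most genes. At a Benjamini-Hochberg adjusted p under 0.05, 8284 of 12822 genes were called (64.6%), 5785 of them higher in WASH (45.1%) and 2499 lower (19.5%). With a log2 difference of at least 0.58 as well, 805 were higher and 197 lower. With CPEB4 KO 1 left out, 7647 genes were called (59.6%), 5371 higher (41.9%) and 2276 lower (17.8%), and 7347 of the 7647 were among the 8284 with the same sign. Of the 8284, 8100 had the same sign in all 3 genotype means. That agreement is partly built in, since the call rests on the average of these means.

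The zero of this scale is set by the scaling of the arrays. The median difference of all genes was 0.11 (log2), and 69.8% of the calls were higher in WASH. The share was 64% after quantile normalization and 32.2% with the arrays centred on their medians, where the median of all genes was -0.10. It was 95.7% with the arrays aligned on 9 spiked hybridisation controls, where the median was 0.39. The controls themselves were lower on the WASH array by 0.18 to 0.37 in every animal. Small differences therefore have no settled direction, and gene lists are read below against the median of all genes, 0.11, a comparison that centring or aligning the arrays leaves as it is. It does not take into account the level of the genes, with which the differences also went (given below). Of 29 lists with a tested gene, 18 had a median above that of all genes and 11 below it, and 1 changed side after quantile normalization. Against 0, 17 list medians changed sign with centred arrays and 4 with aligned arrays.

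The largest differences were losses from WASH. Histone genes took the lowest 4 places of the fitted differences: H4c8 (-4.12), H3c1 (-3.26), H1f4 and H3c14 (-2.07, log2). H1f4 in WASH, at a mean of 5.55, was not above the nonspecific control probe sets, whose highest mean was 5.61, so it was lower by at least 2.44 and its place is not exact. The same holds for 4931430N09Rik, an unnamed transcript at 5.08 in WASH and lower by at least 1.39. Next came Csmd3 (-1.81), a large membrane protein with complement-control domains. It was followed by 9530059O14Rik (-1.72), Nlgn1 (-1.69), which encodes the postsynaptic adhesion protein neuroligin 1, Speer4b (-1.63) and Lrtm1 (-1.57). These 10 were taken only from called genes with all 6 animals on 1 side, so that agreement was fixed by the selection. Csmd3 had log2 levels of 6.40 to 6.65 in WASH (median 6.57), against 8.23 to 8.52 in INPUT (median 8.32), and Nlgn1 had 5.72 to 6.22 in WASH (median 6.14), against 7.398 to 8.15 in INPUT (median 7.74). The highest WASH array was below the lowest INPUT array for both. Csmd3 has another probe set above the filter, at 0.04, which does not share its loss.

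The largest gains were smaller than the largest losses. Prss23, a serine protease, had log2 levels of 7.67 to 8.47 in WASH (median 7.95), against 5.66 to 7.04 in INPUT (median 6.31). The arrays did not overlap, and the difference was 1.69 ± 0.08 (log2, SE; limma adjusted p = 1.45e-05). Rpl14, a protein of the large ribosomal subunit, followed at 1.44 ± 0.15, with an INPUT mean of 5.70, just above those controls. Hspa1b, an inducible Hsp70 chaperone, had an INPUT mean of 5.16, below the controls and below the filter level of 5.52, so it was higher in WASH by at least 0.93 and has no exact place. Its ELUTED mean was 5.13, so it passed the filter only through its WASH arrays, and a gain in WASH was built into its selection. Then came Tmem123 (1.32), Abi1 (1.28), an actin regulator of the WAVE complex, Tmem268 (1.23), Cryz (1.21), a quinone reductase, Fars2 (1.21), the mitochondrial phenylalanine tRNA synthetase, Zdhhc6 (1.19), a palmitoyltransferase, and Lypd6b (1.18). The 10 were likewise selected to have all 6 animals on 1 side. Without CPEB4 KO 1 the values of the 9 other than Hspa1b ran from 1.21 for Zdhhc6 to 1.65 for Prss23. Zdhhc6 has another probe set at -0.32.

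**Figure D2:**
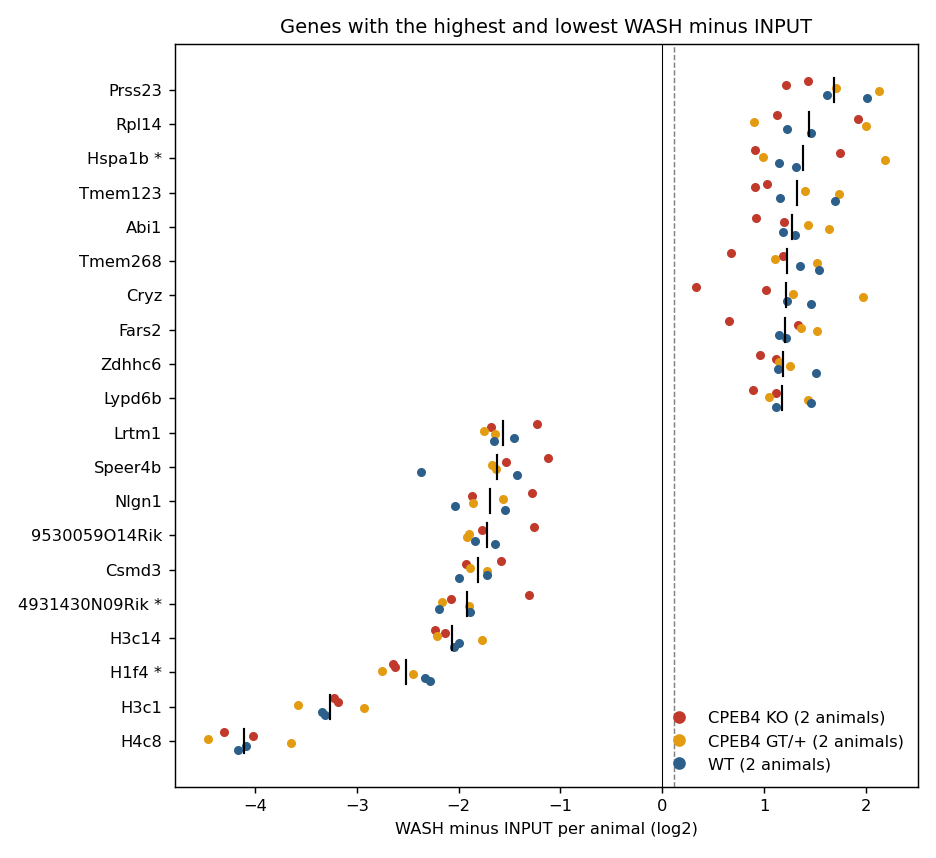
WASH minus INPUT (log2) of the 10 genes with the highest and the 10 with the lowest difference, with 1 point per animal coloured by genotype. Black ticks are the means over genotypes, the solid line is 0 and the dashed line is the median of all genes, 0.11. The lowest 4 genes are histones. The 20 genes were selected to have every animal on the same side of 0. An asterisk marks H1f4, 4931430N09Rik and Hspa1b, which were under the nonspecific controls in WASH or INPUT, so that their points show no exact size.

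The replication-dependent histone genes formed a graded range, with fitted differences from -4.12 for H4c8 to 0.95 for H3c15. The INPUT mean of H3c15, 5.69, was just above the nonspecific controls (5.61). Of 64 listed, 15 had a probe set and 11 passed the filter. All 11 were called, against 64.6% of all genes. Of these, 7 were lower (63.6%, against 19.5% of all genes) and 4 higher (36.4%, against 45.1%). Leaving out CPEB4 KO 1 gave 6 lower and 4 higher. H4c8, which encodes the core histone H4, had log2 levels of 5.85 to 6.22 in WASH (median 6.10), against 9.86 to 10.3 in INPUT (median 10.2). H3c1, an H3 gene, had 8.82 to 9.17 in WASH (median 9.02), against 12.1 to 12.4 in INPUT (median 12.3). H1f4, a linker histone, had 5.41 to 5.69 in WASH (median 5.56), against 7.86 to 8.28 in INPUT (median 8.08). The WASH and INPUT arrays lay far apart for all 3 genes, with limma adjusted p = 3.66e-07 for each. H2bc22, an H2B gene, was lower by less, at -1.05 ± 0.08 (log2, SE), as were H3c4 (-0.56) and H3c7 (-0.22), which came to 0.054 once the arrays were aligned on the hybridisation controls.

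Other histone genes of the same list were higher in WASH. H1f2, also a linker histone, had log2 levels of 9.80 to 10.3 in WASH (median 9.87), against 8.77 to 9.39 in INPUT (median 9.07), with no overlap and a difference of 0.88 ± 0.05 (log2, SE; limma adjusted p = 2.33e-05). H3c15, dim in INPUT, was at 0.95 and H2bc4 at 0.28. H2bc21, with an INPUT mean of 5.48, under the nonspecific controls, was higher by at least 0.52. Its INPUT mean and its ELUTED mean of 5.25 were under the filter level of 5.52. It therefore passed the filter only through its WASH arrays, so a gain in WASH was built into its selection. The long-tail fraction, set against the same INPUT arrays, gave ELUTED minus INPUT of -3.66 for H3c1. H4c8 and H1f4 were under the nonspecific controls in ELUTED, with means of 5.59 and 5.60, and lower there by at least 4.47 and 2.42. Their levels in WASH and ELUTED are therefore not set against each other. H3c1 stayed well above the controls, at means of 8.999 in WASH, 8.60 in ELUTED and 12.3 in INPUT. For H2bc22, ELUTED minus INPUT was -3.02 and WASH minus ELUTED 1.97, so it was lower in both fractions and lowest in ELUTED. H2bc4 was higher in WASH and lower in ELUTED, with ELUTED minus INPUT at -1.77 and WASH minus ELUTED at 2.05. H3c14 and H3c15 are near-identical copies whose probe sets may each read both, and another H3c14 probe set was at 0.43, so the opposite signs of these genes are uncertain.

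The promoters of the linker histone genes are shown because H1f4 and H1f2 had opposite signs in WASH, with that of H4c8, the gene with the largest loss, beside them. Each stretch holds the 130 bases before the gene start in RefSeq (GRCm38.p6). Capitals mark AAACACA (the H1 box), CCAAT and TATATA, each searched on both strands, and TATATA reads the same on either strand.
H1f4, chr13:23622559-23622688, minus strand: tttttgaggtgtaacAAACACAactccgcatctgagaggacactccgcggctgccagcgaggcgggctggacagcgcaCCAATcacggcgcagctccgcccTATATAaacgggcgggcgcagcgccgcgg
H1f2, chr13:23738677-23738806, plus strand: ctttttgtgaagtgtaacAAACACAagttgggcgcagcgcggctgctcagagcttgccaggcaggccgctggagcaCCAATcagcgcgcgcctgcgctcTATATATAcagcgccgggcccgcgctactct
H4c8, chr13:23530914-23531043, plus strand: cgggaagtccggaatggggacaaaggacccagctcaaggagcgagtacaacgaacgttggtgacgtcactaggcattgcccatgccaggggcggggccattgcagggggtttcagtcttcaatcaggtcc
Both linker histone windows hold all 3 motifs, at 115 and 112 bases before the start for the H1 box, and the H4c8 window holds none. Over 32851 promoter windows of this length, AAACACA was in 2.98%, CCAAT in 22.4% and TATATA in 2.66%. The linker genes share these letters and differ in their change in WASH.

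**Figure D3:**
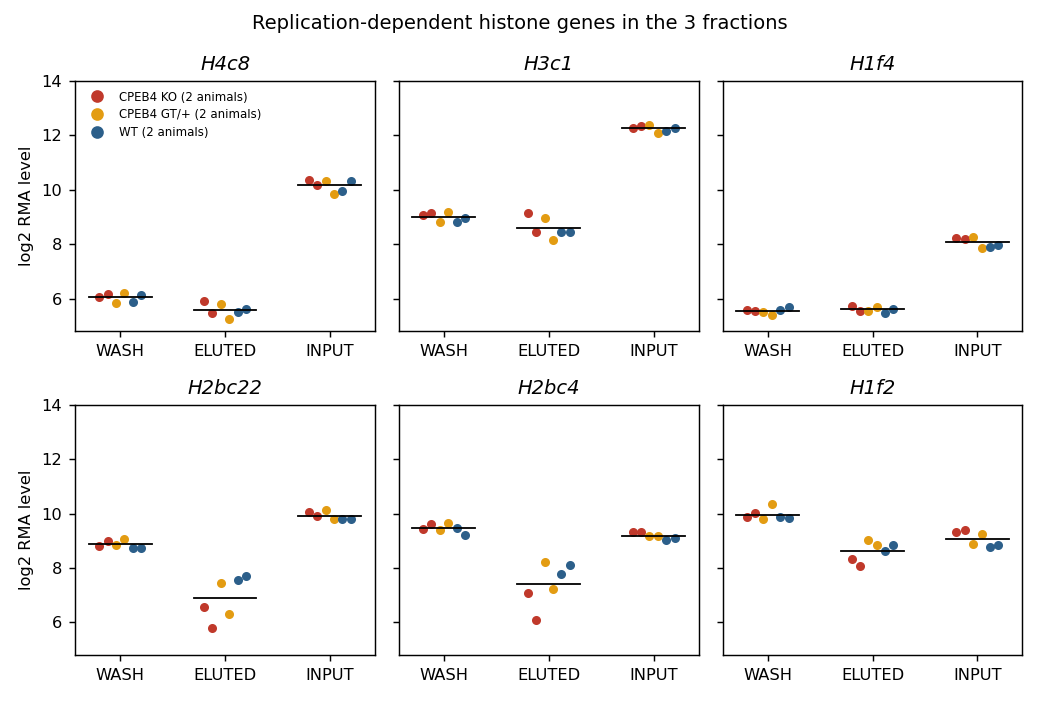
Log2 RMA level of 6 replication-dependent histone genes in the WASH, ELUTED and INPUT fractions, with 1 point per animal coloured by genotype and a line at the mean. H4c8, H3c1 and H1f4 are lower in both poly(A) fractions than in INPUT, H2bc22 and H2bc4 are lowest in ELUTED, and H1f2 is highest in WASH. H1f4 in WASH and ELUTED and H4c8 in ELUTED are not above the nonspecific controls (5.61).

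Replacement histones, most of which are made outside DNA replication from polyadenylated messengers, lay near the median of all genes. Of 10 tested, 4 were higher (40%, against 45.1% of all genes) and 1 lower, with a median of 0.09. H2az2 was at 0.54 ± 0.06 (log2, SE), H2ax at 0.25 and H2az1 at 0.15, the last turning to -0.055 with centred arrays, and H2al2a, at 5.49 in WASH and under the nonspecific controls, was lower by at least 0.15. Leaving out CPEB4 KO 1 gave 2 higher and 1 lower.

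Ribosomal RNA, which has no poly(A) tail, was lower in WASH and still bright. The control probe set for the middle of 18S rRNA had log2 levels of 12.2 to 12.9 in WASH, against 13.3 to 13.4 in INPUT. The 6 pairs all fell, by 0.90 on average (SD 0.26, n = 6), with an exact two-sided sign-flip permutation p = 0.03125, the smallest that 6 pairs allow. The 5′ probe set fell by 0.74 in the same 6 animals. The 3′ probe set held the highest value of the whole array on 3 of the 6 INPUT arrays, the top of its range, so its difference is not given. ELUTED minus INPUT was -0.54 for the middle probe set, so 18S rRNA was high in all 3 fractions. Control probe sets for Actb gave a 3′ minus 5′ level of -0.21 to -0.06 in WASH, against -0.48 to -0.41 in INPUT. Those for Gapdh gave -0.13 to 0.02 in WASH, against -0.10 to -0.05 in INPUT, with overlap and 5 of 6 animals higher in WASH. The part of RNA integrity in the differences between fractions was not tested.

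Long noncoding RNAs listed as nuclear were called lower in WASH more often than higher. Where each member lies in the cell was not measured here, and not all of them are mainly nuclear. Of 27 listed, 20 were tested, 9 lower (45%, against 19.5% of all genes) and 3 higher (15%, against 45.1%). Their median was -0.14, and 0.14 against 0.39 over all genes with aligned arrays. Without CPEB4 KO 1, 10 were lower and 3 higher. Malat1, which gathers in nuclear speckles and whose mature 3′ end is an RNA triple helix with no poly(A) tail, had log2 levels of 11.3 to 11.8 in WASH (median 11.48), against 12.4 to 12.5 in INPUT (median 12.5). The arrays did not overlap, and the difference was -0.96 ± 0.06 (log2, SE; limma adjusted p = 2.68e-05). In the long-tail fraction Malat1 was lower by less, with ELUTED minus INPUT at -0.19 and WASH minus ELUTED at -0.76. This differs from the histone gene H3c1, whose ELUTED minus INPUT was -3.66. Kcnq1ot1, an imprinted RNA that silences its neighbours, had 8.48 to 8.91 in WASH (median 8.54), against 9.87 to 10.2 in INPUT (median 10.02), again with no overlap.

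Kcnq1ot1 did not show this loss in the long-tail fraction. Its WASH minus INPUT was -1.37 and its ELUTED minus INPUT 0.18, and the direct difference, WASH minus ELUTED, was -1.55 (limma adjusted p = 3.93e-05), in a comparison that called 73.4% of all genes. Jpx (-0.71) and Xist (-0.42), both RNAs of the X-inactivation centre, Rmst (-0.66) and Airn (-0.48), an imprinted antisense RNA, were also lower in WASH, and their ELUTED minus INPUT values were 0.28, 0.33, 0.23 and 0.41. Tug1 was at -0.47 and Meg3 at -0.29, but other probe sets of Tug1 were at 0.25 and 0.55, the 9 others of Meg3 ran from -0.51 to 0.19, and another of Xist was at 0.21. Snhg11 was at -0.22 and turned to 0.053 with aligned arrays. The higher ones were Pantr1 (0.34), Sox2ot (0.30) and Zfas1 (0.15), the last at -0.056 with centred arrays.

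Messengers of the cell's basic machinery were called higher more often than the background of 45.1% in most of these lists, with the cytosolic ribosomal proteins and the respiratory subunits as exceptions. Of 74 mitochondrial ribosomal proteins tested, 57 were higher and 0 lower (0 also at an unadjusted limma p under 0.05, as for every count of 0 in a list below), with a median of 0.30 against 0.11 over all genes. Mrps24 had log2 levels of 9.10 to 9.43 in WASH (median 9.29), against 8.30 to 8.55 in INPUT (median 8.44), a difference of 0.86 ± 0.06, and Mrpl44 was at 0.81 ± 0.11. Sm and LSm proteins form the core of the spliceosomal particles, and the list of that name also holds other proteins of these particles. It had 21 of 30 higher and 2 lower with a median of 0.35. Snrpa1 (0.94) and Snrnp25 (0.73), which are neither Sm nor LSm proteins, led it. Translation factors had 29 of 42 higher and 2 lower (median 0.20), among them Eif1a (0.67), which scans for the start codon, and Eif2b4 (0.61), a subunit of the exchange factor for eIF2. Proteasome subunits had 26 of 39 higher and 1 lower (median 0.21), with Psmd6 at 0.53. Genes that host small nucleolar RNAs had 7 of 10 higher and 1 lower (median 0.24).

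Cytosolic ribosomal protein messengers had 24 of 69 higher and 3 lower, 34.8% higher against 45.1% of all genes, with a median of 0.06, below that of all genes. Apart from Rpl14, the members furthest from 0 were Rpl22 at 0.58 and Rps27l at 0.47. Nuclear-encoded subunits of the respiratory complexes had 29 of 68 higher and 0 lower, with a median of 0.12, near that of all genes, and Ndufb5 of complex I at 0.43 was the furthest from 0. Both lists were far lower in the other fraction, where the median ELUTED minus INPUT was -0.84 for the cytosolic ribosomal proteins, -0.95 for the respiratory subunits and -0.64 for the mitochondrial ribosomal proteins, against -0.04 over all genes. Proteins of the SR and hnRNP families, which bind pre-mRNA, had 19 of 42 higher (45.2%) and 8 lower (19%), near the shares of all genes. Srsf3 was at 0.56, and Srrm2, a nuclear speckle scaffold, at -0.57, while Hnrnpab at -0.57 has other probe sets up to 0.61. Without CPEB4 KO 1 the counts of higher genes were 54 of 74 for the mitochondrial ribosomal proteins, 19 of 30 for Sm and LSm proteins, 24 of 42 for translation factors, 23 of 39 for the proteasome and 23 of 69 for the cytosolic ribosomal proteins.

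**Figure D4:**
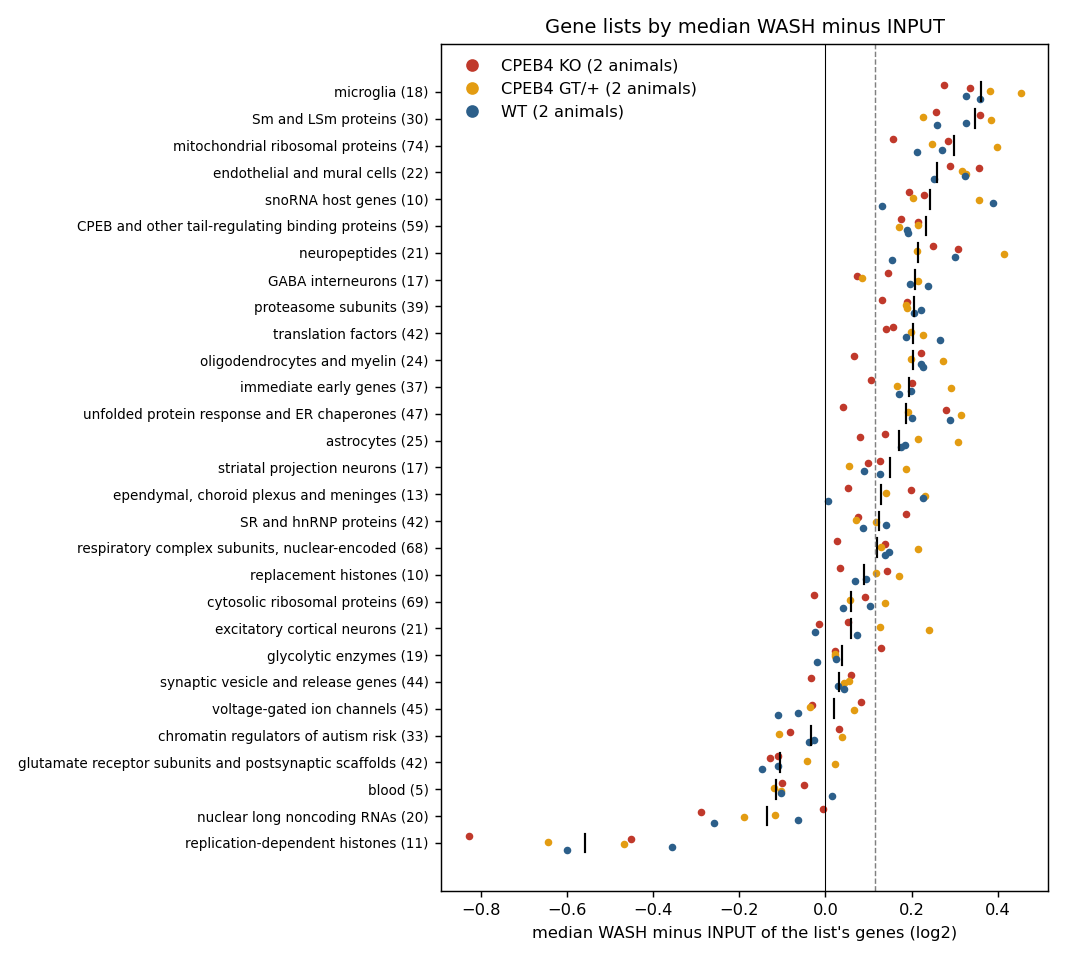
Median WASH minus INPUT (log2) of the genes of each list with at least 5 tested genes, with the number tested in brackets and 1 point per animal coloured by genotype. Black ticks are the medians over the 3 genotypes, and the dashed line is the median of all genes, 0.11. Microglia and Sm and LSm proteins lie at the top, and nuclear long noncoding RNAs and replication-dependent histones at the bottom.

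Among CPEB and other proteins that act on tails, 33 of 59 were higher (55.9%, against 45.1% of all genes). Another 13 were lower (22%, near the 19.5% of all genes), and the median was 0.23. The median INPUT level of this list was 8.52, in a range of levels where 60.8% of genes were higher. Papolg, a nuclear poly(A) polymerase, had log2 levels of 6.70 to 7.196 in WASH (median 6.97), against 6.01 to 6.74 in INPUT (median 6.17), with ranges that overlapped narrowly and all 6 animals higher (0.70 ± 0.05, SE). Cpeb3, a relative of Cpeb4, was lower at -0.75 ± 0.06, while its other probe sets ran from -0.22 to 0.40. Leaving out CPEB4 KO 1 gave 32 higher and 12 lower.

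Several neuronal lists had a median below that of all genes. Of 42 glutamate receptor subunits and postsynaptic scaffolds, 19 were lower (45.2%, against 19.5% of all genes) and 10 higher. The median was -0.10, and 0.17 against 0.39 over all genes with aligned arrays. Without CPEB4 KO 1, 17 were lower and 10 higher. Beside Nlgn1 stood Grin2a, an NMDA receptor subunit, with log2 levels of 5.22 to 5.74 in WASH (median 5.52), against 6.21 to 6.67 in INPUT (median 6.54), and no overlap. Its WASH mean of 5.51 was under the nonspecific controls, so it was lower by at least 0.86. Homer1, a postsynaptic scaffold, was at -0.80, with other probe sets from -0.42 to 0.17. Of the members with the highest INPUT levels, Gria1, an AMPA receptor subunit, was at -0.28, and Camk2a, a kinase whose messenger is found in dendrites, at -0.17, turning to 0.10 with aligned arrays.

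Voltage-gated ion channels had 18 of 45 lower (40%, against 19.5% of all genes) and 11 higher (24.4%, against 45.1%), with a median of 0.02, and 18 lower and 10 higher without CPEB4 KO 1. The list also counts Kcnj6, an inwardly rectifying potassium channel that is not voltage-gated. Kcnj6 had log2 levels of 7.52 to 7.91 in WASH (median 7.65), against 8.45 to 8.76 in INPUT (median 8.57), with no overlap. Kcnh7 (-0.88), Cacna1e (-0.76), a calcium channel subunit, and Kcnma1 (-0.62), the large-conductance potassium channel, were lower as well. Kcnj6 was not lower in the other fraction, with ELUTED minus INPUT at 0.21 and WASH minus ELUTED at -1.11 (limma adjusted p = 7.33e-05). Chromatin regulators of autism risk had as many in either direction, 12 of 33 higher and 12 lower (36.4% each, against 45.1% and 19.5% of all genes), with a median of -0.03. Kmt2c, a histone methyltransferase, had 9.27 to 9.79 in WASH (median 9.63), against 10.6 to 10.8 in INPUT (median 10.7), with no overlap, and Nsd1 (-0.85) and Ankrd11 (-0.57) followed. Other probe sets of these 3 genes reached 0.38, 0.15 and 0.18. Synaptic vesicle genes had 15 of 44 higher (34.1%) and 10 lower (22.7%, near the 19.5% of all genes), with a median of 0.03. They ranged among named genes from Unc13c at 0.74 and Slc17a6, the vesicular glutamate transporter 2, at 0.68 to Rab3c at -0.66. Another Unc13c probe set was at -0.53.

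Neuropeptides had a median above that of all genes. Of 21 tested, 12 were higher (57.1%, against 45.1% of all genes) and 0 lower (against 19.5%), with a median of 0.21, and 13 and 0 without CPEB4 KO 1. Crh, corticotropin-releasing hormone, had log2 levels of 8.78 to 9.49 in WASH (median 9.02), against 7.36 to 8.45 in INPUT (median 7.83), with no overlap and a difference of 1.16 ± 0.10 (SE). Vip was at 0.84 and Tac1, the substance P precursor, at 0.83. In the other fraction ELUTED minus INPUT was -1.02 for Crh, -0.47 for Vip and -1.07 for Tac1, so the levels of all 3 were highest in WASH. Immediate early genes had 23 of 37 higher (62.2%) and 4 lower (10.8%, median 0.19), with Dusp6, a phosphatase of the ERK kinases, at 0.77 and Klf4 at 0.66. Genes of the unfolded protein response had 28 of 47 higher (59.6%) and 4 lower (8.51%, median 0.19), led by Edem3 (0.74), Chac1 (0.67) and Xbp1 (0.66), the transcription factor of that response. Glycolytic enzymes had 5 of 19 higher (26.3%) and 2 lower (10.5%, median 0.04).

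Cell type markers were read in the same way, against 45.1% higher and 19.5% lower over all genes. WASH and INPUT come from the same animal, so these values compare its fractions and do not measure how many cells of a type it had. Of 18 microglial markers, 17 were higher (94.4%) and 0 lower, with a median of 0.36, and 17 and 0 without CPEB4 KO 1. Tyrobp, a signalling adaptor of microglia, had log2 levels of 9.72 to 10.04 in WASH (median 9.79), against 8.95 to 9.42 in INPUT (median 9.21), with no overlap. C1qa was at 0.70, Tyrobp at 0.62 and Tmem119 at 0.56. Endothelial and mural markers had 17 of 22 higher (77.3%) and 1 lower (median 0.26), with Slco1a4 at 0.78 and Ly6c1 at 0.70, and 15 and 1 without CPEB4 KO 1.

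Oligodendrocyte markers had 16 of 24 higher (66.7%) and 0 lower (median 0.20), among them Gsn (0.71) and Fa2h (0.67), which makes hydroxylated myelin lipids. Without CPEB4 KO 1, 12 were higher and 1 lower. Astrocyte markers had 14 of 25 higher (56%) and 3 lower (median 0.17), from Gjb6, a gap junction protein, at 0.65 to Slc1a2, the main glutamate transporter, at -0.47. GABA interneuron markers had 10 of 17 higher (58.8%) and 3 lower (median 0.21). Striatal projection neuron markers had 6 of 17 higher (35.3%) and 3 lower (17.6%, median 0.15), with Rgs9, a regulator of G protein signalling in the striatum, at -0.82 and Drd2, the dopamine D2 receptor, at 0.46. Excitatory cortical markers had 8 of 21 higher (38.1%) and 4 lower (19%, median 0.06), with Neurod6 at 0.76 and Rorb at -0.53. Ependymal, choroid plexus and meningeal markers had 5 of 13 higher (38.5%) and 2 lower, and of 5 blood markers 0 were higher and 2 lower. Ttr, which choroid plexus and liver both make, was at -2.004 in CPEB4 KO 1 and at -0.05 to 0.28 in the other 5 animals.

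The differences also went with level and with annotation. By quintiles of the mean INPUT level, the median WASH minus INPUT was -0.06, 0.07, 0.22, 0.21 and 0.10 from the lowest to the highest quintile, and 25.4%, 41.0%, 57.4%, 60.8% and 41.1% of the genes were higher. With quintiles by the mean of WASH and INPUT the medians were -0.09, 0.06, 0.24, 0.22 and 0.11, so the order is the same. Leaving out CPEB4 KO 1, 24.6%, 40%, 55.1%, 56.1% and 33.7% were higher. Histone genes such as H4c8 and H3c1 lay in the highest quintile, away from this trend. Lists were read against all genes, not genes of like level. Quintile 4 ran from 8.24 to 9.37, and 60.8% of it was higher. Median levels of the tail-acting proteins (55.9% higher), neuropeptides (57.1%) and immediate early genes (62.2%) fell in it, near that share. So did the unfolded protein response (59.6%), astrocytes (56%) and GABA interneurons (58.8%). Microglia (94.4%) and Sm and LSm proteins (70%) in it lay above, glutamate receptors and scaffolds (23.8%) below. Probe sets with no gene symbol were lower more often. In a fit of all probe sets above the filter level, 46.2% of 8835 probe sets without a symbol were lower and 26.8% were higher (median -0.12), against 21.1% lower and 43.3% higher of 20765 with 1 symbol (median 0.10). Leaving out CPEB4 KO 1, 44.7% without a symbol were lower and 25.2% higher, against 19.1% lower and 40% higher with 1 symbol.

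**Figure D5:**
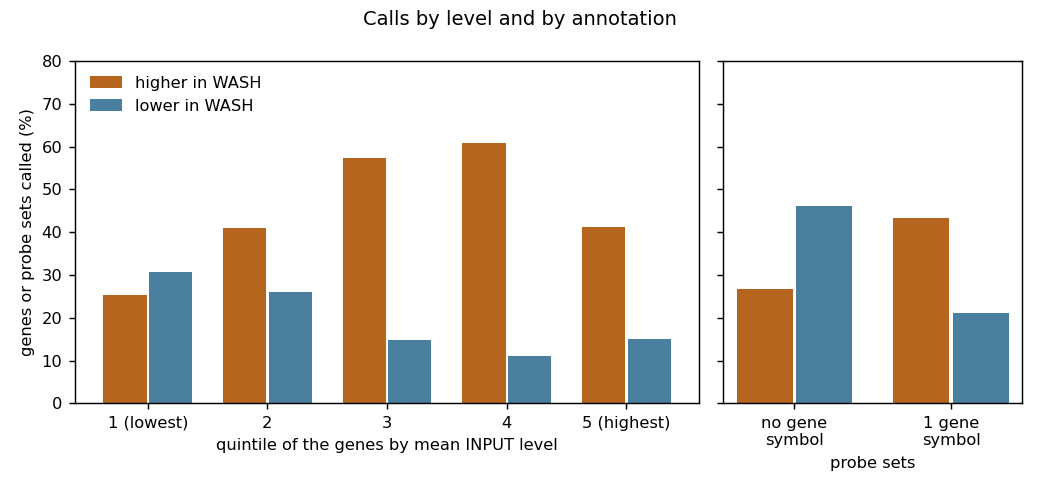
Share of genes called higher or lower in WASH (limma adjusted p under 0.05) by quintile of the mean INPUT level, left, and share of probe sets called, by whether the probe set carries a gene symbol, right. The share of higher genes is largest in the quintile below the highest, 60.8%, and probe sets without a symbol are lower more often (46.2%) than higher (26.8%).

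Probe sets of the same gene often disagreed. Of 137 genes called among those named by the rule, 68 had another probe set above the filter, and for 29 of the 68 at least 1 other probe set had the opposite sign. With CPEB4 KO 1 left out the counts were 130 called, 66 with another probe set and 26 with the opposite sign. Beside the genes given above, other probe sets reached 0.09 for Gria1, 0.08 for Camk2a, 0.19 for Rab3c and 0.14 for Rorb, and were as low as -0.39 for Gsn and -0.01 for Tac1. What the probe sets match within a transcript was not analysed here.

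Genotype made no difference that passed the test. Within CPEB4 KO 3831 genes were called (29.9%), within CPEB4 GT/+ 5703 (44.5%) and within WT 4329 (33.8%), and these counts say nothing of a difference between genotypes. In the test of the difference itself, limma called 0 genes for CPEB4 KO minus WT, 0 for CPEB4 GT/+ minus WT and 0 for CPEB4 KO minus CPEB4 GT/+ (0% of 12822 each). At an unadjusted p under 0.05 there were 462, 381 and 728 genes, against 641 that chance alone gives, and the smallest adjusted p was 0.829. The fit without CPEB4 KO 1 also gave 0 calls for each, with 429, 416 and 527 genes at an unadjusted p under 0.05. For H4c8 the animals gave -4.31 and -4.02 in CPEB4 KO, -4.46 and -3.65 in CPEB4 GT/+ and -4.09 and -4.17 in WT. For Prss23 they gave 1.43 and 1.22 in CPEB4 KO, 1.71 and 2.13 in CPEB4 GT/+ and 1.62 and 2.01 in WT.

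Genes with the smallest unadjusted p and no overlap between genotypes are named as candidates that failed the correction. For CPEB4 KO minus WT these include Lta4h, leukotriene A4 hydrolase, whose WASH minus INPUT was 0.72 and 0.83 in CPEB4 KO, against 0.34 and 0.03 in WT (difference 0.59, limma adjusted p = 1.00). St3gal1, a sialyltransferase, was at -0.81 and -0.46 in CPEB4 KO, against 0.04 and -0.07 in WT. For CPEB4 GT/+ minus WT, Hgh1 was at 0.69 and 0.40 in CPEB4 GT/+, against -0.23 and -0.13 in WT. For CPEB4 KO minus CPEB4 GT/+, Bco2, a carotenoid-cleaving oxygenase, was at -0.20 and 0.06 in CPEB4 KO, against 0.52 and 0.79 in CPEB4 GT/+. When CPEB4 KO rested on animal 1 alone, 160 genes were called lower against WT and 166 against CPEB4 GT/+, and 73 in each were among the 74 that stood apart on its INPUT array.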

How the data were processed

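Values are on a log2 scale as deposited. The submitters' processing notes name RMA, with a version not given in the sources used here. The labels call the arrays PrimeView, while the supplied annotation belongs to another mouse design whose probe set names match the table. Of 45141 probe sets, 28898 with 1 gene symbol were used, and the probe set with the highest average level over all arrays stood for its gene. The lowest 25% of the genes by that mean, under 5.52, were left out. What follows was computed here. For each animal and gene, the log2 INPUT value was subtracted from the log2 WASH value. limma 3.58.1 (eBayes without trend) in R 4.3.3 fitted the genotype means of these differences, with 3 residual degrees of freedom, and the equal-weight mean of the 3 genotypes was tested against 0. Tests were two-sided, with Benjamini-Hochberg adjustment over 12822 genes and a threshold of 0.05. The standard errors (SE) are limma's moderated ones, and the p-values measure only the spread between these animals. The pairing comes from the labels, which name the animal of each fraction. Across genes, the difference between the 2 animals of a genotype in WASH and the same difference in INPUT correlated at 0.203 in CPEB4 KO, 0.0962 in CPEB4 GT/+ and 0.348 in WT.

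Named genes are Cpeb4, the 10 highest and 10 lowest with all animals on 1 side, up to 3 called members and 2 of the highest level per list, any histone or nuclear noncoding gene listed, and up to 5 in each direction between genotypes. The members and the 31 gene lists were chosen with earlier results of these data known, and no list was tested as a set. In simulated data of 12822 genes the comparison over the 3 genotypes called 84.4% of 96 genes changed by 0.5 and 98.1% of 104 changed by 1 (log2), and 7.58% of the calls were false. Only those 96 and 104 genes were changed there, while 8284 were called in the data, so these shares need not carry over. The number of arrays limits the precision. A mean under the highest of 23 nonspecific controls was taken as not above background, and its difference as a bound against that level (chosen after seeing the data). Alternatives were other filters, scalings, probe set rules, pairings and variance priors, and leaving out each animal. Coding length was not analysed here, and 2 lists, of mitochondrially encoded genes and of small noncoding RNAs, had no gene tested.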

Additional observations from a re-analysis of the deposited data

Results flagged for a closer look

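In 8 of 125 values looked at (named genes and list medians), 1 of the 6 animals lay far from the other 5 by Dixon's test, and chance alone gives about 6. CPEB4 KO 1 was that animal in 4 of them. Its WASH minus INPUT (log2) was -1.31 for 4931430N09Rik, which was not above the nonspecific controls in WASH, against -2.20 to -1.89 in the others, 0.0059 for Chac1, a glutathione-degrading enzyme of the unfolded protein response, against 0.68 to 0.98, and -2.004 for Ttr, against -0.05 to 0.28. The median of the glycolytic enzymes was 0.13 in that animal and -0.019 to 0.025 in the others. CPEB4 KO 2 gave 0.51 for Dusp6, against 0.75 to 0.87 in the others, a median of -0.0325 for the synaptic vesicle and release genes, against 0.03 to 0.06, and a median of 0.0657 for oligodendrocytes and myelin, against 0.20 to 0.27. WT 2 gave -0.0909 for Rorb, against -0.71 to -0.54. Beside the value of Ttr stands the liver signal on the INPUT array of CPEB4 KO 1, and its part in the other values of that animal was not tested.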

How the results depend on the processing

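The count of genes called over the 3 genotypes kept within 1.5 times of 8284 under every alternative run (5956 with the lowest 50% of genes left out, where fewer genes were tested, to 10277 once the spiked controls were used to align arrays). The fit with no replicate block, with WASH and INPUT arrays as independent samples, called 7848, and the replicate block of the animal number 8229. Leaving out each animal in turn gave 7012 to 7989 over the 3 genotypes, 1233 to 3789 within CPEB4 KO, 1222 to 5819 within CPEB4 GT/+ and 602 to 4503 within WT. It gave 0 to 160 for CPEB4 KO minus WT, 0 to 166 for CPEB4 KO minus CPEB4 GT/+, 0 for CPEB4 GT/+ minus WT and 7553 to 10255 for WASH minus ELUTED. Within CPEB4 KO it was 1840 without CPEB4 KO 1 and 1233 without CPEB4 KO 2, within CPEB4 GT/+ 1222 without CPEB4 GT/+ 2, and within WT 1020 without WT 1 and 602 without WT 2. The 160 and 166 came without CPEB4 KO 2. The lone animal of a genotype is then assumed to vary like the others. With aligned arrays the counts were 8510 within CPEB4 KO, 8929 within CPEB4 GT/+ and 7230 within WT.

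Among the named genes, 7 values that were called under the main or the alternative setting changed sign. With aligned arrays H3c7 came to 0.0543, Snhg11 to 0.0527 and Camk2a to 0.10. With centred arrays H2az1 came to -0.0554 and Zfas1 to -0.056. With the mean over the probe sets of a gene, Tug1 came to 0.11 and Hnrnpab to 0.14. Of the other values, 1597 kept their side of the threshold, 37 no longer passed it and 3 newly did. Values called under neither setting are among the 1597 whatever their sign. Signal near the nonspecific controls limits Rpl14, Hspa1b, H1f4, Grin2a and other dim probe sets.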

Other observations

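Pmch, melanin-concentrating hormone of the hypothalamus, had log2 levels of 8.60 on the WASH and 8.31 on the INPUT array of CPEB4 KO 1, and 9.55 and 9.23 on those of WT 1. In the other 4 animals it lay between 5.14 and 5.41 on the WASH arrays and between 5.16 and 5.36 on the INPUT arrays. The high values were in the same 2 animals in both fractions.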
